A study of Arabidopsis thaliana with 20 samples.

Results

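The mitochondrial genome of plants encodes a small set of proteins, among them subunits of the respiratory chain and parts of the machinery that makes cytochrome c. The transcripts described here are those of 5 such genes in rosette leaves of Arabidopsis thaliana, each measured by 1 probe set (a set of short oligonucleotides that report on a transcript) of a 1-colour expression array. They were chosen by name: nad4L (244902_at), nad6 (244953_s_at), nad9 (244943_at), ccb382 (244912_at) and ccb452 (244951_s_at), 5 of 22810 probe sets on the array and 5 of the 23 that the array's annotation ties to 1 mitochondrial gene. All 5 were found and all 5 passed the filter on dim signals, which 15470 of 22746 probe sets passed once controls were set aside.

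The study compared the starch synthase 3 mutant Atss3 with wild-type plants (WT) over a day of 8 h light and 16 h darkness. Atss3 leaves and WT leaves were each harvested at 1 h and 4 h after the lights came on, and at 8.5 h, 12 h and 16 h, which lie 0.5 h, 4 h and 8 h into darkness. Each array carried RNA of leaves 5 to 8 pooled from 16 plants at 6 weeks of age. The experiment was run 2 times with its own randomization each time. The replicate number of an array was taken as its run, so each of the 10 groups held 1 array of run 2 and 1 of run 1, 20 arrays in all. Both genotypes had the same day length, leaf stage and harvest. The allele of the mutant is not given in the labels, and no named probe set measured the mutated gene, so the mutant label was not checked. In bulk leaf RNA, fewer cells of a type and less RNA per cell cannot be told apart.

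Signals are linear intensities, scaled by the authors to one trimmed mean of 500.04 to 500.05 on all arrays, so they carry no information on total RNA per leaf. A signal is called dim here where it lay under the 40th percentile of its own array, which ran from 80.5 to 103.8. All 4 measured markers of rosette leaf (RCA, LHCB4.1, PSAE-1 and LHCB4.2) were near the top of the arrays, with a median percentile of 99.89. Their summed signal ran from 48788 to 103900 in Atss3 leaves and from 49105 to 98945 in WT leaves. Markers of other cell types were few: PYK10 for root, FMA and AT1G22690 for guard cells and SWEET11 for vasculature, with 4 genes listed for each, and none of 5 listed for flower and seed. The 5 WT arrays of run 1 stood apart in the ratio of 3' to 5' signal of the GAPDH control, a measure of how evenly transcripts were copied along their length. On the log2 scale it averaged 0.43 ± 0.203 in run 2 and 0.38 ± 0.0336 in run 1 of Atss3, against 0.30 ± 0.0929 in run 2 and -0.13 ± 0.109 in run 1 of WT (SD, n = 5 each). Calls on the 5 transcripts over time in WT are given with and without those arrays, as is Atss3 minus WT of ccb382 over the day. Differences between the runs in WT, and Atss3 minus WT in run 1 or between the runs, cannot be given without them. Values of other probe sets are given only with them.

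Cytochrome c carries electrons between respiratory complexes, and its haem is attached in plant mitochondria by a maturation system of bacterial type. The gene named ccb452 on the array is ccmFC in the TAIR10.1 gene table and ccb382 is ccmFN1, and both encode parts of the haem lyase of that system. Complex I is the large NADH dehydrogenase that feeds electrons into the chain, and nad4L, nad6 and nad9 encode subunits of it: nad4L and nad6 lie in its membrane arm and nad9 in the arm that faces the matrix. In the order of named genes on the mitochondrial chromosome in the same table, none of the 5 is directly next to another of them, but nad4L and ccb382 share the neighbour cox3. The nearest named neighbours of nad4L are cox3 and atp4, those of nad6 are nad2 and cob, and those of nad9 are rpl16 and atp6. ccb382 lies between ccmC and cox3, and ccb452 between rpl5 and nad4. A large copy of mitochondrial DNA is known to lie in the nuclear genome, and 11 probe sets on the array are annotated with both a mitochondrial gene and a gene of chromosome 2. None of the 5 is among them, although the probe sets of nad6 and ccb452 are of the kind (_s_at) designed to match more than 1 transcript.

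Of the 5, nad6 alone had dim signals, on 12 of 20 arrays. The other 4 were above the 40th percentile on all 20. Over all arrays the signal of ccb452 ran from 241.2 to 746.1 with a median of 497.8, and that of ccb382 from 172.5 to 517.1 with a median of 357.1. nad9 ran from 158.7 to 301.4 (median 198.0), nad4L from 104.3 to 251.4 (median 185.5) and nad6 from 50.9 to 139.8 (median 90.1). Signals of different probe sets are not comparable with each other, and each is followed only across its own arrays.

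**Figure D1:**
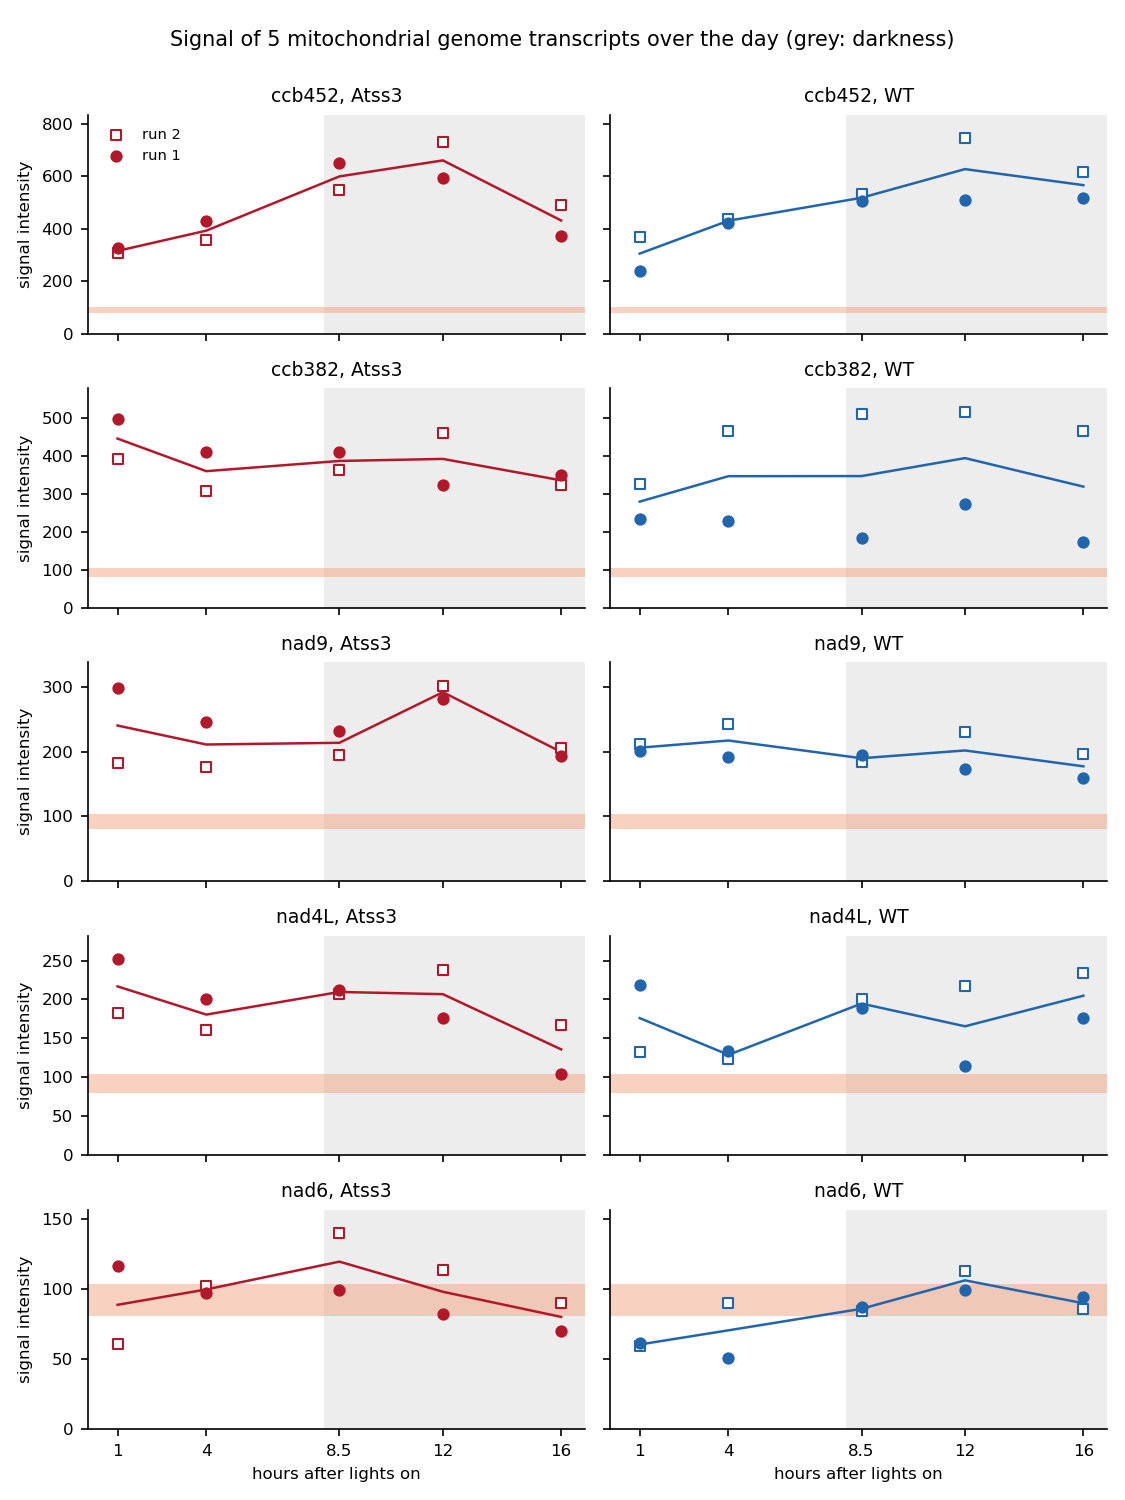
Signal intensity (linear, from 0) of the 5 transcripts against hours after lights on, Atss3 on the left and WT on the right; open squares are run 2, filled circles run 1, the line joins the means of the 2 arrays, grey marks darkness and the orange band the range of the arrays' 40th percentiles (80.5 to 103.8). The mean of ccb452 is lowest at 1 h and highest at 12 h in both genotypes, the 2 runs of ccb382 lie apart at each time in WT, and nad6 lies in or near the orange band.

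ccb452 changed over the day in both genotypes. Averaged over the runs, its transcript was lowest 1 h after the lights came on, higher in the middle of the light period, highest 4 h into the night, and at an intermediate level 8 h into the night. Averaged over the 4 arrays of each time, the signal was 310.8 at 1 h, 412.0 at 4 h, 559.1 at 8.5 h, 644.2 at 12 h and 499.1 at 16 h, a range of 1.05 on the log2 scale or 2.07-fold between the means of log2 signal.

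In Atss3 leaves ccb452 had signals of 306.3 and 325.5 at 1 h, 356.7 and 429.6 at 4 h, 549.2 and 650.4 at 8.5 h, 729.6 and 591.9 at 12 h, and 491.0 and 372.5 at 16 h, run 2 before run 1. In WT leaves it had 370.1 and 241.2 at 1 h, 438.1 and 423.7 at 4 h, 532.1 and 504.7 at 8.5 h, 746.1 and 509.1 at 12 h, and 616.2 and 516.8 at 16 h. All 4 arrays of 12 h lay above all 4 of 1 h, and all 4 of 8.5 h lay above all 4 of 4 h. The arrays of 12 h overlapped with those of 8.5 h and with those of 16 h. In run 2 of both genotypes 12 h was the highest time. In run 1 the highest signal was at 8.5 h in Atss3, and at 16 h in WT, whose 3 night signals differed little.

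The time course of ccb452 passed the test in both genotypes in limma, a linear model with moderated variance fitted over all 15470 probe sets. The range of the 5 time means was 1.06 log2 in Atss3 (adjusted p = 0.00727) and 1.04 log2 in WT (adjusted p = 0.0116). It was the only 1 of the 5 called in either. The background was high: 48% of all kept probe sets were called over time in Atss3, 44.2% in WT and 65.5% over both genotypes. Leaving out the WT array of 1 h, run 1, which held the lowest ccb452 signal, ended the call in WT (range of means 0.79, adjusted p = 0.0935), and so did leaving out all 5 WT arrays of run 1 (1.01, 0.177). The call in Atss3 held in all 30 alternative fits.

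Between neighbouring times, averaged over the genotypes, it was 0.42 higher at 4 h than at 1 h (log2, SE 0.156, adjusted p = 0.0544) and 0.44 higher at 8.5 h than at 4 h (SE 0.156, adjusted p = 0.0452). The later steps did not pass: 0.19 from 8.5 h to 12 h (adjusted p = 0.421) and -0.37 from 12 h to 16 h (adjusted p = 0.227). Of the 5 transcripts, 1 was thus called in the step to 8.5 h and 0 in the others, where all kept probe sets gave 34.3% called in that step and 33.9%, 19.8% and 3.96% in the steps to 4 h, 12 h and 16 h. Without adjustment, limma's p for ccb452 was also under 0.05 in the steps to 4 h and to 16 h, and no other of the 5 was in any step, where all kept probe sets gave 43.5%, 43.4%, 33.5% and 17.8% in the 4 steps in order. The step of ccb452 to 8.5 h fell short of the threshold in 16 of 30 alternative fits, with values of 0.32 to 0.47. Among these were the fits without either Atss3 array of 12 h or 16 h, without either WT array of 4 h, 8.5 h or 16 h, and without the Atss3 array of 4 h, run 2, or of 8.5 h, run 1.

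Dark minus light, the mean of 12 h and 16 h minus the mean of 1 h and 4 h, was 0.59 for ccb452 in Atss3 (log2, SE 0.156, adjusted p = 0.00974) and 0.72 in WT (SE 0.156, adjusted p = 0.00334). Darkness is confounded with the hour of harvest here, and the 2 cannot be told apart. The difference between the genotypes was -0.12 (95% interval -0.60 to 0.35, adjusted p = 0.984). Of all kept probe sets 38.3% were called in Atss3 and 34.5% in WT, and 0% in the difference between them, where limma gave 5.06% at an unadjusted p under 0.05 and 0 of the 5. Fitted in run 2 alone the values were 0.86 in Atss3 and 0.75 in WT, and in run 1 alone 0.33 and 0.68, none called (limma adjusted p from 0.146 to 0.625). These fits had few arrays and took 1 h and 4 h, and likewise 12 h and 16 h, as replicates. Their spread thus holds the change between those times. Without the 5 WT arrays of run 1, the value of ccb452, dark minus light in WT, was 0.75 and no longer called (SE 0.215, adjusted p = 0.0541). That of ccb452, dark minus light in Atss3, was then 0.59 and still called (adjusted p = 0.0206). Markers of cell types moved in the same contrast: all 4 of rosette leaf fell in the dark, with a median of -0.60 log2 in Atss3 and -0.56 in WT, and PYK10 was 1.01 higher in Atss3 and 1.48 higher in WT (adjusted p = 0.0199 and 0.00239). The vasculature marker SWEET11 was 0.36 higher in Atss3 (adjusted p = 0.0714) and 0.73 higher in WT (adjusted p = 0.00183), and neither guard cell marker passed. The summed signal ran from 155.5 to 696.4 for root, 698.9 to 2096 for guard cells and 3423 to 7015 for vasculature in Atss3, and from 92.4 to 554.1, 764.8 to 2558 and 3002 to 8258 in WT. Their part in the course of ccb452 was not tested.

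For ccb382, the other haem lyase gene, no change over time passed the test. In Atss3 leaves its signals were 393.6 and 499.1 at 1 h, 308.8 and 412.1 at 4 h, 364.5 and 410.2 at 8.5 h, 462.0 and 323.5 at 12 h, and 322.6 and 349.8 at 16 h, run 2 before run 1. In WT leaves they were 326.1 and 233.9 at 1 h, 465.3 and 229.0 at 4 h, 510.3 and 184.5 at 8.5 h, 517.1 and 272.6 at 12 h, and 466.7 and 172.5 at 16 h. The runs crossed in Atss3, while in WT every array of run 2 lay above every array of run 1. The means of the 5 times differed by 0.40 log2 in Atss3 (adjusted p = 0.931) and 0.44 in WT (adjusted p = 0.885). Dark minus light was -0.14 in Atss3 (95% interval -0.83 to 0.54) and 0.12 in WT (95% interval -0.57 to 0.81), intervals wide enough to hold a change of moderate size in either direction.

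No change of nad9 over time passed the test in either genotype either. In Atss3 leaves it had signals of 182.0 and 298.0 at 1 h, 175.7 and 246.0 at 4 h, 195.1 and 231.8 at 8.5 h, 301.4 and 281.4 at 12 h, and 205.2 and 193.4 at 16 h, run 2 before run 1. In WT leaves it had 211.6 and 200.2 at 1 h, 242.6 and 191.4 at 4 h, 184.6 and 194.8 at 8.5 h, 229.5 and 173.8 at 12 h, and 195.7 and 158.7 at 16 h. Both Atss3 arrays of 12 h were among the 3 highest signals of nad9. The range of its time means was 0.55 log2 in Atss3 (adjusted p = 0.32) and 0.29 in WT (adjusted p = 0.835).

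nad4L varied between runs at the same time as much as between times. In Atss3 leaves its signals were 182.2 and 251.4 at 1 h, 160.5 and 200.7 at 4 h, 207.5 and 211.8 at 8.5 h, 237.4 and 176.2 at 12 h, and 167.6 and 104.3 at 16 h, run 2 before run 1. In WT leaves they were 133.0 and 219.2 at 1 h, 124.1 and 133.8 at 4 h, 200.6 and 188.9 at 8.5 h, 216.8 and 114.3 at 12 h, and 233.4 and 176.3 at 16 h. The signal at 8.5 h was the steadiest, between 188.9 and 211.8 on all 4 arrays. The order of the times differed between the genotypes: the mean of 16 h was the lowest in Atss3 and the highest in WT. That contrast did not pass, with a range of time means of 0.69 log2 in Atss3 (adjusted p = 0.336) and 0.65 in WT (adjusted p = 0.429), and an adjusted p of 0.833 for genotype by time.

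nad6 lay close to the dim limit throughout, at 0.613 to 1.42 times the 40th percentile of its array. In Atss3 leaves its signals were 60.9 (dim) and 116.6 at 1 h, 102.3 (dim) and 97.2 at 4 h, 139.8 and 99.3 (dim) at 8.5 h, 113.7 and 82.4 (dim) at 12 h, and 90.0 and 70.2 (both dim) at 16 h, run 2 before run 1. In WT leaves they were 59.1 and 61.7 (both dim) at 1 h, 90.1 and 50.9 (both dim) at 4 h, 84.5 (dim) and 87.3 at 8.5 h, 113.1 and 99.3 at 12 h, and 85.5 (dim) and 94.2 at 16 h. In WT all 4 arrays of the light were dim, and at 12 h neither was.

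Dark minus light of nad6 was 0.61 in WT (log2, SE 0.219, adjusted p = 0.0477) and -0.06 in Atss3 (SE 0.219, adjusted p = 0.847). The call in WT held in 5 of 31 alternative fits, those with arrays centred on their medians, with quantile normalization, without either Atss3 array of 1 h and without the WT array of 4 h, run 2. With dim signals raised to the 40th percentile of their array the difference was 0.13 (adjusted p = 0.438), and without the 5 WT arrays of run 1 it was 0.43 (adjusted p = 0.44). The difference between the genotypes was -0.67 (95% interval -1.34 to 0.00, unadjusted p = 0.0502, adjusted p = 0.932). Its time course did not pass in Atss3 (range of time means 0.57 log2, adjusted p = 0.502) or in WT (0.81 log2, adjusted p = 0.196). With ccb452, 2 of the 5 were thus called in dark minus light in WT and 1 of the 5 in Atss3, both higher in the dark, where 19.7% and 21.6% of all kept probe sets were called higher.

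No difference between Atss3 and WT over the day passed the test for any of the 5. Averaged over the 5 times, Atss3 minus WT was -0.03 for ccb452 (log2, 95% interval -0.25 to 0.18), 0.29 for ccb382 (-0.15 to 0.72), 0.20 for nad9 (-0.04 to 0.44), 0.13 for nad4L (-0.19 to 0.46) and 0.24 for nad6 (-0.06 to 0.54). Adjusted p ran from 0.445 for nad9 to 0.91 for ccb452, the count was 0 of 5 where 0.0194% of all kept probe sets were called, and no unadjusted p from limma was under 0.05, where 13.7% of all were. The smallest unadjusted p from limma was 0.0915, for nad9. Its signal was higher in Atss3 in 8 of 10 matched comparisons by time and run, as were those of nad4L and nad6. For nad9 these were 3 of 5 in run 2 and 5 of 5 in run 1.

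When each time was tested, the count was again 0 of 5 at each time. Of all kept probe sets 0.11% were called at 1 h, 0.0129% at 4 h, 0.0129% at 8.5 h, 0.0194% at 12 h and 0.0259% at 16 h (at an unadjusted p under 0.05, in the same order, 9.2%, 3.81%, 11.7%, 10.5% and 2.83%). The only unadjusted p under 0.05 was that of nad9 at 12 h, where Atss3 leaves averaged 291.4 ± 14.2 and WT leaves 201.7 ± 39.4 (SD, n = 2 each, limma difference 0.54 log2, unadjusted p = 0.0476, adjusted p = 0.467). The largest difference at a single time was that of ccb382 at 1 h, 446.4 ± 74.6 in Atss3 leaves against 280.0 ± 65.2 in WT leaves (SD, n = 2 each, 0.68 log2, SE 0.447, adjusted p = 0.676). Genotype by time called 0 of the 5, with the smallest unadjusted p at 0.202 for nad4L, and 0.00646% of all kept probe sets, or 7.1% without adjustment.

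The 2 runs differed in ccb382 more than in the other 4. The SD between arrays of the same genotype and time was 0.59 log2 for ccb382, at the 92.6th percentile of all kept probe sets, whose median SD was 0.27. It was 0.36 for nad4L, 0.33 for nad6, 0.25 for nad9 and 0.24 for ccb452, at percentiles 71.7, 67.1, 41.8 and 39.7.

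In WT, ccb382 averaged 457.1 ± 77.1 in run 2 and 218.5 ± 40.5 in run 1 (SD over the 5 times), and the runs did not overlap, 326.1 to 517.1 against 172.5 to 272.6. Run 2 minus run 1 was 1.07 log2 or 2.09-fold (SE 0.163, limma adjusted p = 0.00408), and it was positive at all 5 times, from 0.48 at 1 h to 1.47 at 8.5 h. In Atss3 it averaged 370.3 ± 61.3 in run 2 and 398.9 ± 67.9 in run 1, a difference of -0.11 log2 (SE 0.163, adjusted p = 0.755) that was positive at 1 of 5 times. Of the 5 transcripts 1 was called higher in run 2 in WT and 0 in Atss3, where 7.59% and 0.084% of all kept probe sets were called higher, and 13.1% and 0.168% in either direction.

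For the other 4 transcripts no run difference passed. In WT, run 2 minus run 1 was 0.31 log2 for ccb452 (SE 0.130, unadjusted p = 0.0359, adjusted p = 0.134, positive at 5 of 5 times), 0.21 for nad9 (SE 0.130, adjusted p = 0.3), 0.15 for nad6 (SE 0.203, adjusted p = 0.653) and 0.12 for nad4L (SE 0.219, adjusted p = 0.757). In Atss3 the same 4 lay between -0.25 for nad9 and 0.09 for nad6, with no unadjusted p from limma under 0.05, where 20.6% of all kept probe sets were. Single pairs of arrays still differed widely: nad6 at 1 h in Atss3 by -0.94 log2 and nad4L at 12 h in WT by 0.92.

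The genotype difference of ccb382 thus went different ways in the runs. In run 2, Atss3 minus WT was -0.30 log2 (SE 0.163, adjusted p = 0.628), positive in 1 of 5 pairs. In run 1 it was 0.87 (SE 0.163, adjusted p = 0.0254), positive in 5 of 5 pairs. The test of that difference, genotype by run, gave -1.17 (SE 0.230, unadjusted p = 0.000308, adjusted p = 0.0599), just short of the threshold. It was called in 8 of 28 alternative fits, among them those without either Atss3 array of 12 h or either WT array of 1 h (-1.33 and -1.32). The call in run 1 held in 18 of 28 and was lost without any 1 of the Atss3 arrays of 1 h, 4 h, 8.5 h and 16 h or the WT arrays of 4 h, 8.5 h, 12 h and 16 h of that run (values 0.77 to 0.91). Without the 5 WT arrays of run 1, Atss3 minus WT over the day was -0.30 (adjusted p = 0.625), against 0.29 with them.

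The other 4 transcripts showed smaller contrasts between the runs. nad9 had Atss3 minus WT of -0.03 in run 2 and 0.43 in run 1 (log2, SE 0.130 each, adjusted p = 0.972 and 0.121), and its genotype by run was -0.46 (unadjusted p = 0.0283, adjusted p = 0.348). For ccb452, nad4L and nad6 genotype by run was -0.29, -0.06 and -0.06, with adjusted p of 0.571, 0.96 and 0.954. In all, 0 of the 5 were called for genotype by run, 0 for Atss3 minus WT in run 2 and 1 in run 1, where 0.459%, 0.0646% and 1.56% of all kept probe sets were called. At an unadjusted p under 0.05 in limma, ccb382 and nad9 passed for genotype by run (12% of all) and none of the 5 in run 2 (8.95% of all).

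**Figure D2:**
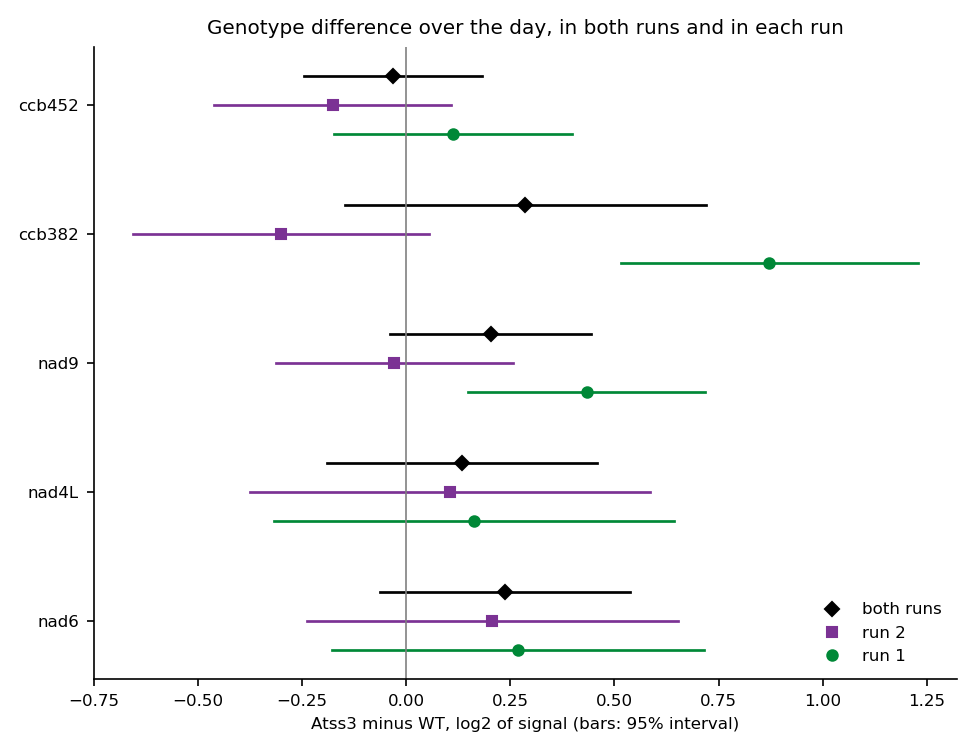
Atss3 minus WT over the 5 times on the log2 scale (points, with 95% intervals from limma) for the 5 transcripts, over both runs (diamonds), in run 2 (squares) and in run 1 (circles). The 2 runs of ccb382 lie on opposite sides of 0, at -0.30 in run 2 (interval -0.66 to 0.06) and 0.87 in run 1. The intervals of all 5 include 0 in run 2, and those of ccb452, nad4L and nad6 also do in run 1.

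The GAPDH ratio moved with the run difference of ccb382: its log2 value was lower on the 5 WT arrays of run 1 (-0.22 to 0.05) than on all other 15 (0.15 to 0.71). With that ratio as a covariate, run 2 minus run 1 of ccb382 in WT was 1.44 log2 and no longer called (SE 0.297, adjusted p = 0.166). Atss3 minus WT was then 1.31 in run 1 (SE 0.336, adjusted p = 0.374) and -0.08 over the day (SE 0.290, adjusted p = 0.954). The part of RNA quality in the difference was not tested beyond this fit, since the ratio and the group of arrays nearly coincide. The same ratio of the actin control averaged 2.71 in run 2 and 2.61 in run 1 of Atss3, and 2.80 in run 2 and 2.92 in run 1 of WT, and did not set those arrays apart.

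Of the 18 other probe sets tied to 1 mitochondrial gene, 12 passed the filter. In WT, 9 of the 12 were called, all higher in run 2, with a median run difference of 0.64 log2 against 0.04 over all kept probe sets, of which 13.1% were called and 7.59% called higher. In Atss3, 0 of the 12 were called (limma adjusted p of 0.33 or more, 0 at an unadjusted p under 0.05) and the median was 0.04, against 0.00 over all. Of all kept probe sets only 0.168% were called in Atss3, and 20.6% had an unadjusted p under 0.05. With ccb382, 10 of the 17 mitochondrial probe sets were called in WT, and 17 of 17 had a positive difference (16 of 17 after quantile normalization). The count was 9 with arrays centred on their medians or quantile normalized, and 1 with the GAPDH ratio as a covariate. In that covariate fit the median run difference of the 17 was 0.56 log2, against 0.57 without the covariate, and 16 of 17 were positive. Calls over all 15470 kept probe sets fell from 2031 to 20 in the same fit.

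**Figure D3:**
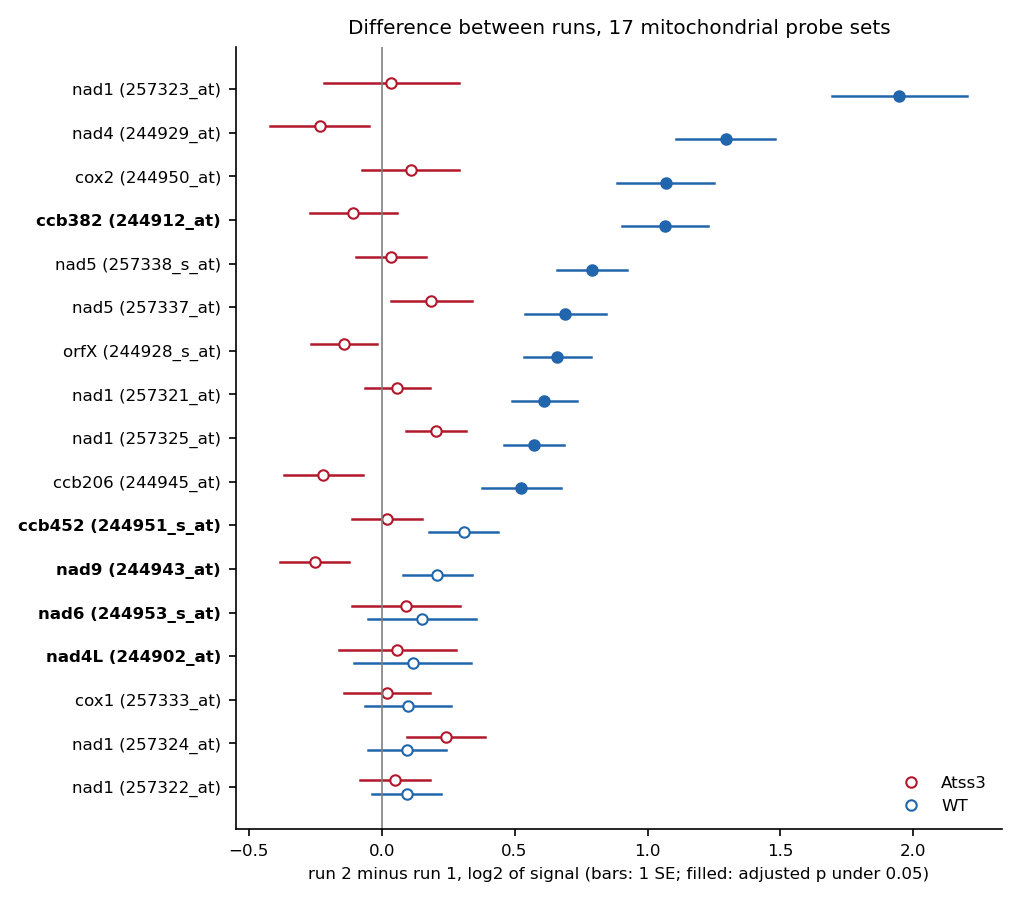
Run 2 minus run 1 on the log2 scale (points, with bars of 1 SE) for the 17 kept mitochondrial probe sets, Atss3 in red above WT in blue, filled where the adjusted p was under 0.05 and with the 5 chosen transcripts in bold. In WT, 10 are filled, from 0.53 for ccb206 to 1.95 for nad1 (257323_at), and in Atss3 none is.

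The 3 other mitochondrial probe sets with the smallest p for genotype by run were those of nad4, nad1 and orfX. nad4, another membrane subunit of complex I, averaged 693.8 ± 186 in run 2 and 807.3 ± 176 in run 1 of Atss3, against 982.9 ± 105 in run 2 and 400.7 ± 41.9 in run 1 of WT (SD, n = 5 each, genotype by run -1.53 log2, limma adjusted p = 0.0276). A probe set of nad1 (257323_at) averaged 90.4 ± 24.5 in run 2 and 88.1 ± 23.7 in run 1 of Atss3, against 104.8 ± 28.1 in run 2 and 27.6 ± 9.66 in run 1 of WT (SD, n = 5 each, -1.91 log2, limma adjusted p = 0.0488). That probe set lay under the 40th percentile on 14 arrays. The run differences of orfX (mttB in the gene table), -0.14 in Atss3 and 0.66 in WT, were smaller, and its genotype by run did not pass (-0.80 log2, adjusted p = 0.105).

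Over the day in both genotypes together, 4 of the 12 other mitochondrial probe sets were called, against 65.5% of all kept probe sets. All 4 were of nad1, a complex I subunit whose messenger is spliced together from separate transcripts. The 3 with the smallest p were 257325_at, 257322_at and 257324_at, with ranges of time means of 1.35, 0.96 and 0.72 log2 over both genotypes (adjusted p = 3.8e-05, 0.000681 and 0.0108). Like ccb452, all 3 were lowest at 1 h. The probe set 257325_at averaged 76.9, 191.3, 203.7, 211.6 and 123.4 in Atss3, and 87.4, 169.7, 212.0, 165.6 and 153.7 in WT, at the 5 times in order (n = 2 arrays each). In Atss3 all 3 peaked at 12 h with ccb452, and in WT all 3 peaked at 8.5 h. The nad1 probe sets did not run alike: 257323_at was called between the runs in WT and 257322_at and 257324_at were not, with differences of 1.95, 0.09 and 0.10 log2.

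The 5 transcripts were only loosely tied to each other over the 20 arrays. Pearson's r of log2 signal was highest between nad9 and ccb382 (0.54) and between nad6 and ccb452 (0.53), and lowest between nad9 and ccb452 (0.22). The 2 haem lyase transcripts had an r of 0.26. These correlations are over arrays that share genotype, time and run, and are descriptions.

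Among 8506 kept probe sets with 1 gene name, those most like ccb382 were plastid and mitochondrial: atpI, a subunit of the plastid ATP synthase (r = 0.94 over 20 arrays), rpoC1, a subunit of the plastid-encoded RNA polymerase (0.94), and nad1 (257323_at, 0.94). Of the 20 most alike, 18 were of the plastid genome, 2 of the mitochondrial genome and 0 of the nucleus. atpI averaged 230.5 ± 70.2 in run 2 and 371.3 ± 159 in run 1 of Atss3, against 559.1 ± 177 in run 2 and 50.4 ± 22.5 in run 1 of WT (SD, n = 5 each). rpoC1 averaged 3025 ± 678 in run 2 and 3707 ± 938 in run 1 of Atss3, against 4157 ± 857 in run 2 and 1619 ± 341 in run 1 of WT. Both, like ccb382, were lowest on the 5 WT arrays of run 1 without overlap. They were picked for likeness to ccb382 on these same arrays, so a shared pattern follows from the choice. Of the 68 plastid probe sets kept, limma called 53 higher in run 2 of WT than in run 1 and 4 lower, with a median of 1.03 log2, where 7.59% of all kept probe sets were called higher and 13.1% in either direction. In Atss3 it called 0 of the 68, with a median of -0.23, and 18 had an unadjusted p under 0.05, where 20.6% of all kept probe sets did.

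**Figure D4:**
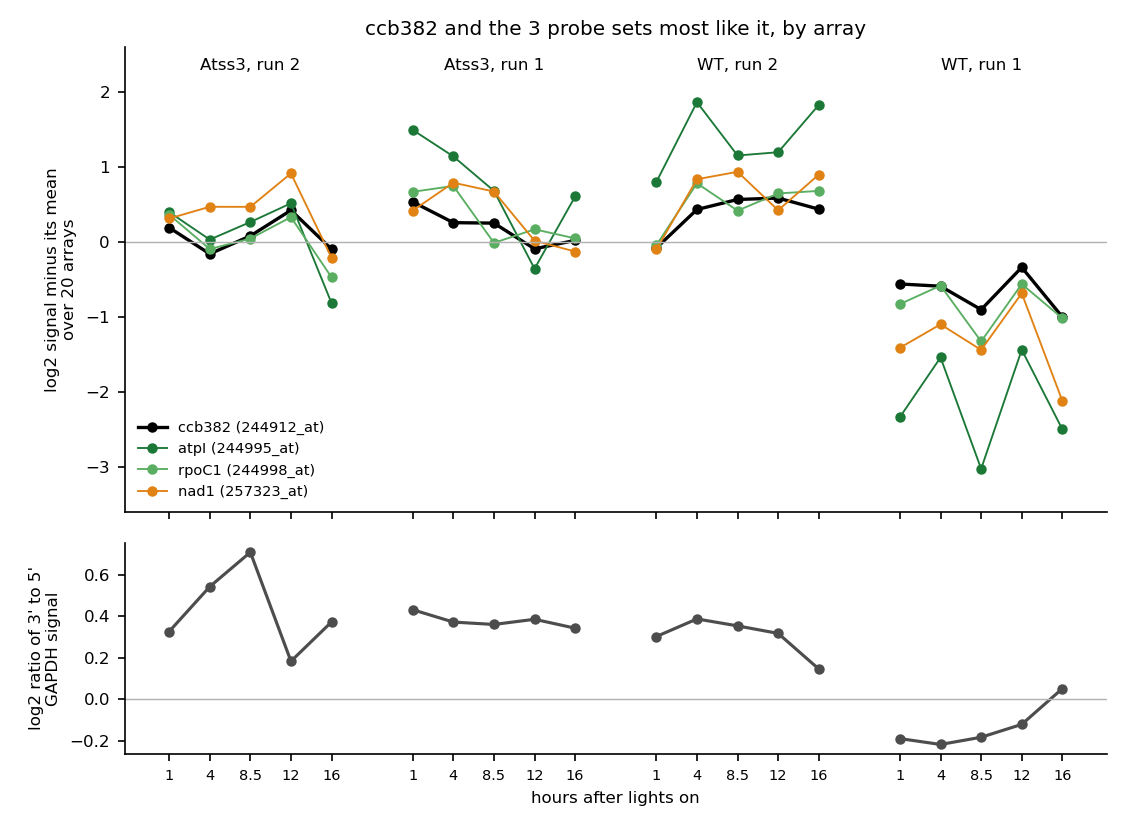
Above, log2 signal minus its mean over the 20 arrays for ccb382 (black) and the 3 probe sets most like it, atpI and rpoC1 of the plastid genome (green) and nad1 of the mitochondrial genome (orange), by hours after lights on within each genotype and run; below, the log2 ratio of 3' to 5' GAPDH signal on the same arrays. The 5 WT arrays of run 1 have the lowest values of all 4 probe sets, without overlap with the other 15 arrays, and the lowest GAPDH ratios, -0.22 to 0.05.

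ccb452 had other neighbours. The 3 probe sets most like it were of the nuclear genes AT3G18510, AT5G63410 and AT3G26782 (r = 0.88 each over 20 arrays), and all 20 most alike were nuclear. AT5G63410 averaged 497.1, 586.7, 832.5, 1104 and 925.3 at the 5 times in order, over 4 arrays each, lowest and highest at the same times as ccb452. AT3G18510 (46.5 at 1 h and 156.0 at 12 h) and AT3G26782 (56.9 at 1 h and 207.8 at 12 h) had the same lowest and highest time, with 8 and 4 dim arrays. For nad6 the most alike were AT2G27320 (0.80), AT3G47940 (0.75) and AT4G39550 (0.75), for nad9 AT3G61690 (0.75), AT1G75990 (0.74) and AT5G51630 (0.73), and for nad4L AT1G52810 (0.69), AT2G18090 (0.67) and AT4G17580 (0.67). With so many candidates, likeness at any of these values is a ranking only. The probe sets were picked on the same 20 arrays, so times shared with ccb452 follow from the choice.

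The nuclear partners of these genes were covered thinly, since few of their loci had a named probe set. Of 17 listed nuclear genes of complex I subunits or assembly, 7 passed the filter. Over the day in both genotypes together 1 was called, where 65.5% of all kept probe sets were. It was GLDH, which makes ascorbate and is needed for complex I assembly (range of time means 0.60 log2, limma adjusted p = 0.015). FRO1, a subunit of the matrix arm, did not pass (0.40 log2, adjusted p = 0.0559).

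Of 7 listed nuclear genes of cytochrome c, cytochrome c1 and cytochrome c maturation, 5 passed the filter and all 5 were called over the day, where 65.5% of all kept probe sets were. CYTC-2, a gene of cytochrome c itself, fell in the dark by 1.36 log2 in Atss3 (SE 0.170, adjusted p = 5.5e-05) and fell by 1.67 in WT (SE 0.170, adjusted p = 1.1e-05). AT3G27240, a gene of cytochrome c1, had dark minus light of -0.25 in Atss3 (adjusted p = 0.0859) and fell by 0.40 in WT (adjusted p = 0.0117). Over the list, 2 were called higher and 2 lower in the dark in Atss3, with a median of -0.25 against 0.04 over all kept probe sets, of which 38.3% were called and 21.6% called higher. In WT 0 were called higher and 2 lower, with a median of -0.18 against 0.05 over all, of which 34.5% were called and 19.7% called higher.

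Of 12 listed alternative oxidases and NAD(P)H dehydrogenases that bypass complex I, 4 passed the filter and 3 were called over the day, a share near the 65.5% of all. NDC1 fell in the dark by 0.38 log2 in Atss3 (adjusted p = 0.0203) and fell by 0.63 in WT (adjusted p = 0.0011), and NDB1 rose by 0.73 in Atss3 (adjusted p = 0.00505), with 0.30 in WT (adjusted p = 0.204). Of 18 listed nuclear factors of mitochondrial transcription and RNA processing, 4 passed the filter and 3 were again called over the day, likewise near the 65.5% of all. They include AT5G14580, the mitochondrial polynucleotide phosphorylase (range of time means 1.32 log2, adjusted p = 0.000216), and AT5G15700, a phage-type RNA polymerase of the organelles (2.21 log2, adjusted p = 0.00513), which were dim on 15 and 12 arrays. For Atss3 minus WT over the day, limma called 0 in each of these 4 lists, and 0 at an unadjusted p under 0.05. Of all kept probe sets 0.0194% were called and 13.7% had an unadjusted p under 0.05, so lists this short tell little here.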

How the data were processed

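Total RNA of 20 leaf pools, labelled with biotin per the labels, was measured on 1-colour arrays, which do not name the labelling primer. The authors deposited 1 linear intensity for each probe set and array, made with MAS5 per the submitters' processing notes (version not stated there), and these were used without further scaling. The number of arrays limits the precision.

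Values below 1 were set to 1 before log2. Probe sets above the 40th percentile of the array on 2 or more arrays were kept (15470 of 22746 without the 64 controls). limma 3.58.1 (R 4.3.3) was fitted to all kept probe sets with a mean for each of 10 groups and the run as a block (9 residual and 3.45 prior degrees of freedom). A second model added genotype by run (8 residual degrees of freedom) for all run differences. Tests were 2-sided, with Benjamini-Hochberg adjustment across the kept probe sets of a contrast and a threshold of 0.05. The first model was tested on simulated data for Atss3 minus WT over the day only. The time course, dark minus light and run differences were not tested in that way.

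Replicate numbers were taken to mark runs. The titles number the replicates, and the design text tells of separate runs with independent randomizations, but no label ties a number to a run. Same-numbered arrays deviated together with r above 0.1 in 41 of 45 pairs of groups (median 0.199, lowest -0.108). P-values measure the spread between arrays, each of 1 pool of plants. For differences between or within runs, the 5 harvest times of a run served as its replicates. Those p-values do not measure how far repeated runs would differ. Names came from the platform annotation, which lists 13513 probe sets with 1 gene, 503 with several and leaves 8730 unlisted. Mitochondrial genes were matched to TAIR10.1 by symbol or synonym (23 probe sets, 16 genes, 0 matched by Entrez identifier), and 13436 others by Entrez identifier. Start positions served only to order the mitochondrial genes, and no sequences were used. The 5 transcripts and all gene lists were chosen with earlier results of these data known. Named beside them are, per transcript, the 3 kept 1-gene probe sets with the highest r over 20 arrays; the 3 other mitochondrial probe sets with the smallest p for genotype by run and 3 for the time course; and the 2 members of each nuclear list with the smallest time-course p. cox1, ccb206 and the other probe sets drawn in plots, and the markers, were not chosen by that rule.

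Alternatives were no run block, no filter, a filter of at least 10 arrays, dim signals raised to the 40th percentile, 64 added before log2, median centring, quantile normalization, the GAPDH ratio as covariate, a variance trend, each run alone, no WT arrays of run 1, and each array left out. Plots used matplotlib 3.10.9.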

Additional observations from a re-analysis of the deposited data

Results flagged for a closer look

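Among the 10 sets of 10 arrays checked (5 transcripts in 2 genotypes), 1 held a sample far from the others. The lowest nad4L signal in Atss3, 104.3 at 16 h in run 1 (6.70 on the log2 scale), lay well under the next lowest, 160.5 at 4 h in run 2 (7.33). Chance alone would give this in about 1 of 20 sets of like arrays, and 10 sets were checked. Each set here mixed 5 harvest times and 2 runs, and 16 h had the lowest mean of nad4L in Atss3. That rate is thus only a guide. On the same array the 25S rRNA control had a signal of 5578, the second highest of the 20 after 5780 on the WT array of 16 h, run 2, where nad4L was at 233.4; its part in the low signal was not tested. Without that array, Atss3 minus WT of nad4L at 16 h was -0.29 log2, against -0.62 with it, and its range of time means in Atss3 was 0.36 log2, against 0.69, none called in either case (adjusted p from 0.336 to 1).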

How the results depend on the processing

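The counts of transcripts called for Atss3 minus WT over the day (0), at single times (0), for genotype by time (0), for the time course in Atss3 (1) and for run 2 minus run 1 in Atss3 (0) were the same in all alternatives run. The count for the time course in WT was 1 and became 0 without the 5 WT arrays of run 1 (0 to 1 with 1 array left out, 0 without the WT array of 1 h, run 1). The count of steps between neighbouring times was 1; it was 0 with no replicate block, with no filter, with the GAPDH covariate and without the 5 WT arrays of run 1, and 2 with the stricter filter, with raised signals and with a variance trend, where ccb452, 4 h minus 1 h, also passed (adjusted p from 0.0423 to 0.0457). With 1 array left out it was 0 to 2. It was 0 without either array of Atss3 12 h or 16 h, or of WT 4 h, 8.5 h or 16 h, and 2 without the run 2 array of Atss3 8.5 h or of WT 1 h. Without Atss3 4 h, run 2, or Atss3 8.5 h, run 1, the 1 step called was that to 4 h. Dark minus light in Atss3 (1) became 0 in run 2 alone and in run 1 alone, and was 1 whichever array was left out. Dark minus light in WT (2) was 1, ccb452 alone, with no replicate block, no filter, the stricter filter (which removed nad6), raised signals, 64 added, the GAPDH covariate or a variance trend, 0 without the 5 WT arrays of run 1 and in each run alone, and 1 to 2 with 1 array left out. nad6 passed there without either Atss3 array of 1 h or the WT array of 4 h, run 2. Run 2 minus run 1 in WT (1) became 0 with the GAPDH covariate and was 1 whichever array was left out. Genotype by run (0) was 1, ccb382, with the stricter filter, raised signals, 64 added and a variance trend (adjusted p from 0.0269 to 0.0374), and 0 to 1 with 1 array left out; it was 1 without either array of Atss3 12 h or of WT 1 h. Atss3 minus WT of ccb382 in run 1 was no longer called with no filter (adjusted p = 0.0685), nor without any of 8 of the 10 run 1 arrays, Atss3 12 h and WT 1 h being the exceptions (values 0.77 to 0.91). A fit without the run block, or without the 5 WT arrays of run 1, gives no run difference. Centring arrays on their medians moved the median of all kept probe sets by just over 0.1 log2 in Atss3 minus WT in run 1 (-0.07 centred, 0.03 as deposited) and at 8.5 h (-0.07 and 0.04) and 12 h (-0.09 and 0.01). Leaving out the replicate block changed no call other than those named. No call on the 5 changed under centring or quantile normalization. Dimness limits nad6, whose signals gave no level clear of the 40th percentile on 12 arrays.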
